A study of Mus musculus with 12 samples.

Results

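The inhibin, activin and follistatin system is followed here through 10 genes: the subunit genes Inha, Inhba and Inhbb, the secreted antagonist genes Fst and Fstl3, the receptor genes Acvr2a, Acvr2b, Acvr1b and Acvr1c, and the inhibin co-receptor gene Tgfbr3. They were taken by gene symbol from 30702 genes named on the array, and all 10 had a transcript cluster, the array's unit for a locus. Acvr2b had 2 clusters, and the one with the higher mean over the 12 arrays stands for it. RNA came from mouse gonads collected 14.5 days post coitum from embryos of mixed 129Sv and C57Bl/6J background, and each array holds the pair of gonads of a single embryo. The XY FOXL2+ gonads carried a Rosa26-CAG-LSL-Foxl2+/f allele together with Sf1-cre+/Tg, so that Cre removes a stop cassette and the CAG promoter drives Foxl2 wherever Sf1-cre has acted, which in the fetal gonad is in somatic cells. The XX control and XY control gonads had the Rosa26+/+ genotype and carried Sf1-Cre+/Tg as well, so Cre is shared by all 3 groups of 4 arrays. The comparisons ask how far the genes of this system in an XY gonad move when FOXL2, a transcription factor of ovarian granulosa cells, is switched on, and how that compares with the difference between the fetal ovary and testis.

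Activins are dimers of beta subunits, beta A from Inhba and beta B from Inhbb, and inhibins pair a beta subunit with the alpha subunit from Inha. Activin binds a type II receptor, ACVR2A or ACVR2B, which recruits a type I receptor, ACVR1B or ACVR1C, and these phosphorylate SMAD2 and SMAD3. Inhibin blocks this by occupying the type II receptor together with betaglycan, the product of Tgfbr3, while follistatin and FSTL3 bind activin itself. In the mouse, activin A from fetal Leydig cells drives Sertoli cell proliferation, and in the fetal ovary follistatin holds activin B in check, which keeps a testis-type vessel from forming.

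The alpha and beta subunits come from separate genes, and the bases just before the RefSeq start used for each are shown. These 3 genes were all lower in the ovary than in the testis and spread in like manner over the XY FOXL2+ arrays. RefSeq (GRCm38.p6) promoter windows were at hand for 8 of the 10 genes, not for Fst and Tgfbr3. The 250 bases before the start follow, 5′ to 3′ on the strand of the gene, with a match to the first motif named below in capitals. Inha lies on the plus strand (chr1:75507359-75507608), Inhba on the plus strand (chr13:16011601-16011850) and Inhbb on the minus strand (chr1:119422249-119422498).
Inha: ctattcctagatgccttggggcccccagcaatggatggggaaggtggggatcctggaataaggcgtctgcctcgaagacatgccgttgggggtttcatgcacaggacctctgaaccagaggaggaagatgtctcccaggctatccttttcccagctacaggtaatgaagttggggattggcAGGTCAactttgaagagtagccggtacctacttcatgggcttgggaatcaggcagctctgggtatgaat
Inhba: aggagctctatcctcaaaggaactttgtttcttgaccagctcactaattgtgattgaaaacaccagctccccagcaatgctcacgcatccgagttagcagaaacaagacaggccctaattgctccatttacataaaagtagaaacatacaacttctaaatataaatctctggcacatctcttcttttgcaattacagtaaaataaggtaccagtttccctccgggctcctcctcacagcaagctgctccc
Inhbb: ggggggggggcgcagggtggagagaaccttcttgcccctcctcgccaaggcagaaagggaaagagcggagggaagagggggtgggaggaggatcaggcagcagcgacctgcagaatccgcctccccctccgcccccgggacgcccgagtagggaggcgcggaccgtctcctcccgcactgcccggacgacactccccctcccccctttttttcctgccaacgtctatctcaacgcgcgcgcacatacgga
The motifs searched on both strands were the nuclear receptor half-site AGGTCA, which SF1 and other nuclear receptors read, the cyclic AMP response element TGACGTCA, the forkhead motif GTAAACA, the GATA motif GATAA and the SMAD motif CAGACA. No motif contains another. Inha had AGGTCA from 69 to 64 bases before the start used here, and no listed motif stood in the Inhba or Inhbb window. Bases before AGGTCA in the Inha window read as coding sequence of Inha itself, so the start used may be internal. Neither the match nor the GC content of this window is shown to describe the Inha promoter. Of 32817 windows of the same length, 14.0% held AGGTCA, 1.55% TGACGTCA, 3.16% GTAAACA, 22.6% GATAA and 17.1% CAGACA. The GC content of the windows was 53.6% for Inha, 43.2% for Inhba and 68% for Inhbb.

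Signal is given on the log2 scale throughout, as a level for 1 cluster, a mean over a list or a difference between groups. Levels of different clusters are set against each other only to judge background. Spearman correlations between arrays of a group ran from 0.981 to 0.991 in XY FOXL2+ and from 0.986 to 0.992 in XY controls, and rounded to 0.992 in XX controls. The Y-linked gene Uty read 10.96 to 11.33 in XY FOXL2+, 6.19 to 6.28 in XX controls and 11.30 to 11.38 in XY controls, as the labelled sexes have it. The mean signal of 10 Sertoli cell markers ran from 7.66 to 9.36 in XY FOXL2+, 6.95 to 6.98 in XX controls and 10.6 to 10.9 in XY controls. For 8 fetal granulosa cell markers, Foxl2 among them, it ran 8.10 to 9.70, 9.94 to 10.3 and 7.63 to 7.68 in that group order. Foxl2 itself read 7.67, 8.62, 7.18 and 6.72 on XY FOXL2+ replicates 1 to 4, against 5.07 to 5.55 in XY controls, and the XY control level is not shown to be above background. The sources used here do not say which of the transgene and the endogenous gene its probes detect. No detection calls come with the values. The Y-linked genes Uty, Kdm5d, Eif2s3y and Uba1y, which XX cells lack, still averaged 5.99 to 6.94 in XX controls, so a signal in that range is not shown to be above background. These clusters differ among themselves, so the range is a rough guide and not a common background level. In whole gonads, fewer cells of a type and less RNA per cell cannot be told apart.

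Inha and Acvr1b fell and Fst rose in XY FOXL2+ gonads relative to XY controls, and the other 7 genes did not pass. These were 3 of 10 genes, set beside 7.12% of all 65956 clusters called in this comparison (2.46% higher and 4.67% lower) at an adjusted p threshold of 0.05. The median difference of the 10 genes was -0.29, against 0.0031 over all clusters. The arrays of the groups did not overlap for 6 of the 10 genes, where 12.2% of all clusters show this (5.23% higher, 6.97% lower). They did not overlap for 8 of 10 genes in XX controls relative to XY controls, beside 25.4% of all clusters (10.5% higher, 14.8% lower), and for 5 of 10 in XY FOXL2+ relative to XX controls, beside 11.5% (6.63% higher, 4.82% lower). In XX controls relative to XY controls 8 of 10 genes passed, 3 higher (Fst, Acvr2a, Acvr2b) and 5 lower (Inha, Inhba, Inhbb, Acvr1b, Tgfbr3), beside 17.4% of all clusters (7.17% higher, 10.2% lower). Between XY FOXL2+ and XX control gonads 2 of 10 passed, Fst lower and Tgfbr3 higher, beside 5.51% of all clusters (2.87% higher, 2.64% lower). The comparisons share their groups in pairs, the XY controls serving in the first and the second. The genes were chosen with results of these data known, so these counts describe them and are not independent support. Calls were more frequent among the 32978 clusters above the median mean signal, where all of the 10 genes but Acvr1c lay. Fitted alone, these clusters gave 1677 higher and 3204 lower calls in XY FOXL2+ minus XY control. They gave 4513 and 6259 in XX control minus XY control, and 1909 and 1988 in XY FOXL2+ minus XX control. The shares over all clusters are thus low for genes of such signal.

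**Figure D1:**
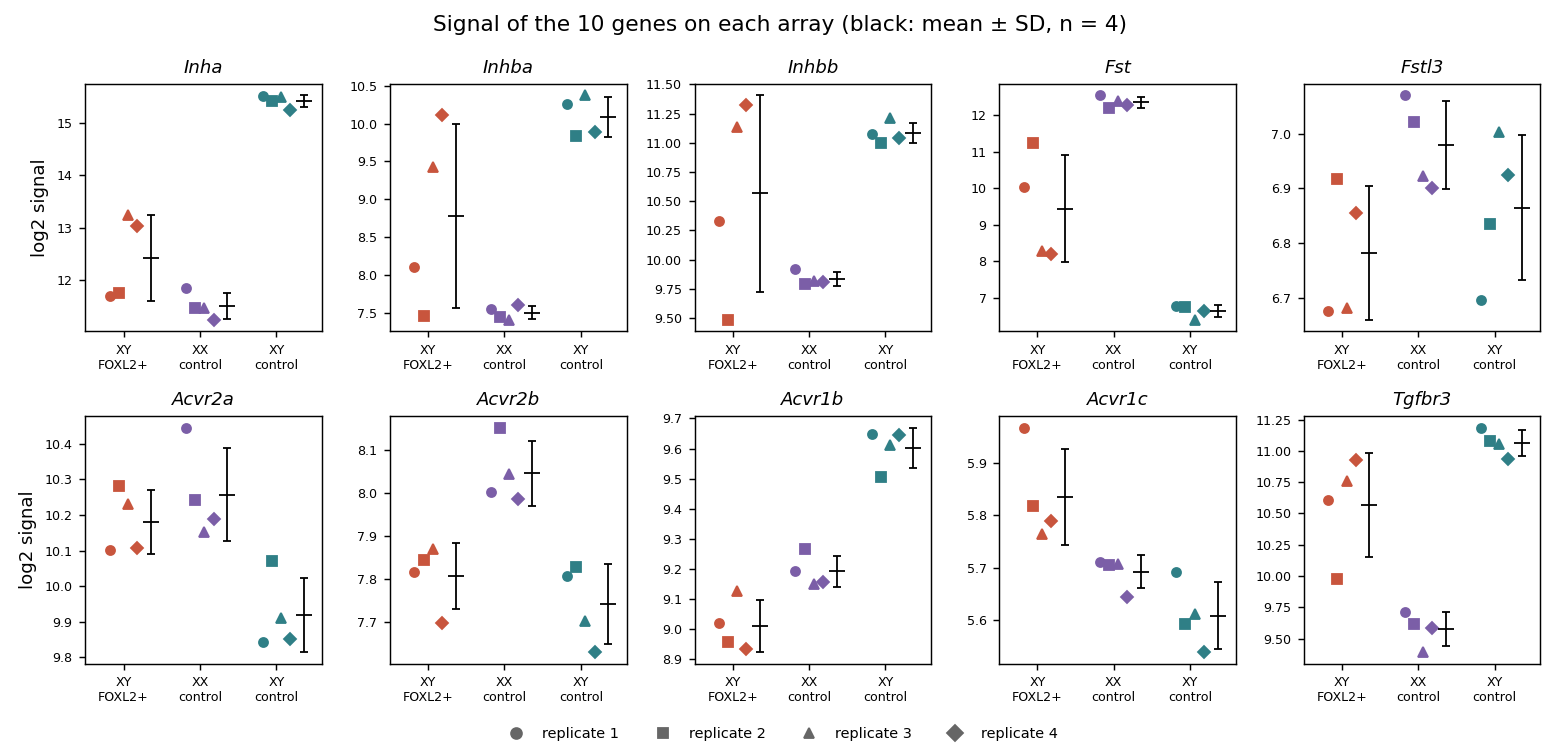
Log2 signal (vertical axis, own scale per gene, not starting at 0) of the 10 genes on each of 12 arrays, by group, with the mean and SD of 4 arrays in black and the replicate given by the marker shape. The XY FOXL2+ arrays of Inhba run from 7.45 to 10.12 and those of Fst from 8.21 to 11.24, while the arrays of either control group lie close together.

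Inha, which encodes the subunit that makes a dimer an inhibin, read 11.68, 11.74, 13.23 and 13.03 on XY FOXL2+ replicates 1 to 4. XX controls read 11.83, 11.45, 11.45 and 11.24, and XY controls 15.51, 15.42, 15.49 and 15.26. All XY FOXL2+ arrays thus lay far below all XY controls, and replicates 1 and 2 lay within the XX range. The mean was 12.42 ± 0.83 in XY FOXL2+, 11.49 ± 0.25 in XX controls and 15.42 ± 0.12 in XY controls (SD, n = 4). Relative to XY controls Inha fell 7.99-fold in XY FOXL2+ (difference -3.00, SE 0.30, adjusted p = 5.56e-05) and was 15.2-fold lower in XX controls (-3.93, SE 0.30, adjusted p = 3.25e-06). XY FOXL2+ minus XX control was 0.93 (95% interval 0.27 to 1.59, adjusted p = 0.108). That last difference passed without XY FOXL2+ replicate 1 (1.18, adjusted p = 0.0281), without replicate 2 (1.16, 0.0291) and with array weights (1.31, 0.00384).

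Inhba, the beta A gene, was clearly lower in the ovary but did not pass in XY FOXL2+. Its signal was 8.10, 7.45, 9.43 and 10.12 on XY FOXL2+ replicates 1 to 4, 7.55, 7.45, 7.41 and 7.59 in XX controls, and 10.26, 9.84, 10.38 and 9.89 in XY controls. Replicate 2 thus lay within the XX range, replicate 4 within the XY control range, and the other two in between. XY FOXL2+ minus XY control was -1.32 (95% interval -2.25 to -0.38, adjusted p = 0.0961), and XX control minus XY control was -2.59 (SE 0.43, adjusted p = 0.000946), a 6.03-fold lower level in XX. Without XY FOXL2+ replicate 4 the first difference was -1.76 and passed (adjusted p = 0.00861). XY FOXL2+ minus XX control was 1.28 (95% interval 0.34 to 2.21, adjusted p = 0.12), and passed without XY FOXL2+ replicate 2 (1.72, adjusted p = 0.00897) and with array weights (1.74, 0.00699).

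Inhbb, the beta B gene, showed the same kind of spread with smaller differences. Signals of 10.33, 9.49, 11.14 and 11.33 were read on XY FOXL2+ replicates 1 to 4, against 9.92, 9.79, 9.81 and 9.81 in XX controls and 11.08, 11.002, 11.21 and 11.05 in XY controls. Replicate 2 was below every XX array and replicate 4 above every XY control. The group SD was 0.84 in XY FOXL2+, 0.06 in XX controls and 0.09 in XY controls. XX controls were 2.38-fold lower than XY controls (-1.25, SE 0.30, adjusted p = 0.0104). This SE uses a spread shared by all 3 groups, so the wide XY FOXL2+ spread enters it. XY FOXL2+ minus XY control was -0.51 (95% interval -1.16 to 0.13, adjusted p = 0.38), and XY FOXL2+ minus XX control was 0.73 (0.09 to 1.38, adjusted p = 0.201). The difference from XX controls passed without XY FOXL2+ replicate 2 (1.10, adjusted p = 0.00302) and with array weights (1.04, 0.0148).

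Fst, which encodes follistatin, rose in XY FOXL2+ gonads but stayed well short of the ovary. It read 10.03, 11.24, 8.27 and 8.21 on XY FOXL2+ replicates 1 to 4, 12.55, 12.20, 12.38 and 12.28 in XX controls, and 6.78, 6.74, 6.396 and 6.64 in XY controls. The 3 groups did not overlap. XY controls lay where absent Y-linked genes read, so background signal may make folds against them too small. These folds are point estimates with sampling error, not minimum values. The rise over XY controls was estimated at 6.94-fold (2.80, SE 0.51, adjusted p = 0.00523). XX controls were an estimated 52.5-fold higher than XY controls (5.71, SE 0.51, adjusted p = 9.8e-06). XY FOXL2+ was 7.56-fold lower than XX controls (-2.92, SE 0.51, adjusted p = 0.00561). Without XY FOXL2+ replicate 2 the rise over XY controls was 2.20 and the difference from XX controls -3.52. With any single array left out, the adjusted p of the rise was at most 0.0187, and over all alternative fits at most 0.0309. Fstl3, the follistatin relative, read 6.68 to 6.92 in XY FOXL2+, 6.90 to 7.07 in XX controls and 6.70 to 7.004 in XY controls. These ranges overlapped, lay at or near the level of absent genes, and passed in no comparison, with differences of -0.08 (adjusted p = 0.675) for XY FOXL2+ and 0.11 (0.469) for XX controls, both relative to XY controls.

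Among the receptor genes Acvr1b, the main type I receptor of activin, fell in XY FOXL2+. The arrays read 9.02, 8.96, 9.13 and 8.93 in XY FOXL2+, 9.19, 9.27, 9.15 and 9.16 in XX controls, and 9.65, 9.50, 9.61 and 9.64 in XY controls. Every XY FOXL2+ array was below every array of both control groups. Acvr1b fell 1.51-fold relative to XY controls (-0.59, SE 0.08, adjusted p = 0.000457), and XX controls were 1.33-fold lower than XY controls (-0.41, SE 0.08, adjusted p = 0.00236). XY FOXL2+ minus XX control was -0.18 (95% interval -0.35 to -0.01) and did not pass (adjusted p = 0.226). Unlike the subunit genes, Acvr1b had a small spread in XY FOXL2+ (SD 0.09, against 0.05 in XX controls and 0.07 in XY controls).

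Acvr1c, which encodes the other type I receptor, read 5.76 to 5.97 in XY FOXL2+, 5.64 to 5.71 in XX controls and 5.54 to 5.69 in XY controls, levels at or below those of the absent Y-linked genes. Its XY FOXL2+ arrays were above all others, by 0.23 over XY controls, which missed the threshold (adjusted p = 0.0552). The type II receptor genes were slightly higher in the ovary. Acvr2a read 10.10 to 10.28 in XY FOXL2+, 10.15 to 10.45 in XX controls and 9.84 to 10.07 in XY controls. XX controls exceeded XY controls by 0.34 (adjusted p = 0.0231), a call lost when any of XY control replicates 1, 3 and 4 or XX control replicates 1 and 2 was left out (adjusted p up to 0.0734). XY FOXL2+ minus XY control was 0.26 for Acvr2a (adjusted p = 0.126), and passed after quantile normalization (0.37, adjusted p = 0.0379). Acvr2b read 7.70 to 7.87 in XY FOXL2+, 7.99 to 8.15 in XX controls and 7.63 to 7.83 in XY controls. Its level in XX controls exceeded that in XY controls by 0.30 (adjusted p = 0.0165), and XY FOXL2+ differed from XY controls by 0.06 (95% interval -0.11 to 0.23, adjusted p = 0.718). The XX call was lost when XY control replicate 3 (adjusted p = 0.0531), XY control replicate 4 (0.0506) or XX control replicate 2 (0.0602) was left out. It was also lost with the mean of both Acvr2b clusters (0.14, adjusted p = 0.34), the second of which read between 5.38 and 5.99 on all arrays.

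Tgfbr3, the betaglycan gene, lay between the ovary and testis levels in XY FOXL2+. The arrays read 10.61, 9.98, 10.76 and 10.93 in XY FOXL2+, 9.71, 9.61, 9.39 and 9.59 in XX controls, and 11.19, 11.08, 11.06 and 10.94 in XY controls. The XY FOXL2+ arrays fell between the 2 control groups without touching either, though replicate 4 came within 0.0073 of the lowest XY control. XY FOXL2+ exceeded XX controls 1.99-fold (0.99, SE 0.17, adjusted p = 0.00437), and XX controls were 2.81-fold lower than XY controls (-1.49, SE 0.17, adjusted p = 5.18e-05). Relative to XY controls the XY FOXL2+ difference was -0.50 (95% interval -0.86 to -0.13, adjusted p = 0.105), and it passed without XY FOXL2+ replicate 4 (-0.62, adjusted p = 0.0423).

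**Figure D2:**
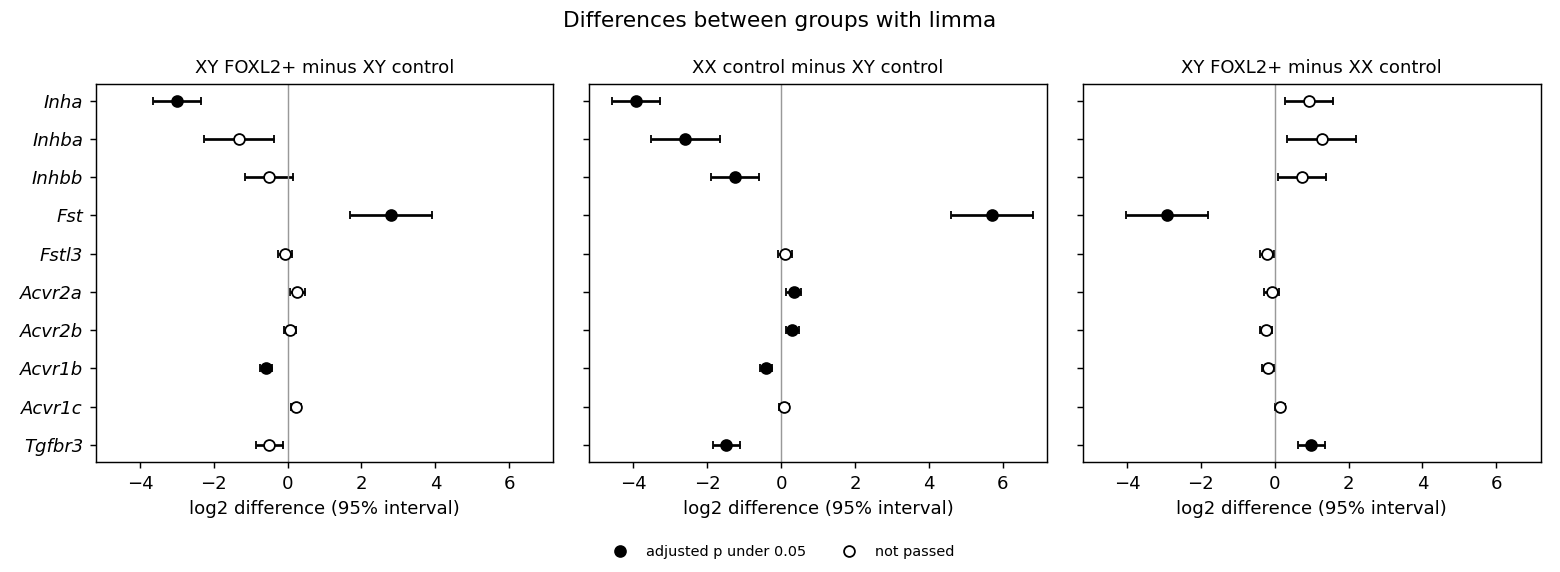
Log2 differences (horizontal axis) of the 10 genes in 3 comparisons with their 95% intervals from limma, filled where the adjusted p was under 0.05. Inha, Acvr1b and Fst are filled in XY FOXL2+ minus XY control, 8 genes in XX control minus XY control, and Fst and Tgfbr3 in XY FOXL2+ minus XX control.

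For the 8 genes that differed between the control groups, each XY FOXL2+ array can be placed by the percent of the way it lay from the XY control mean to the XX control mean. On average Inha lay at 76.3%, Acvr2a at 77.3%, Inhba at 50.7%, Fst at 48.9%, Inhbb at 41.2%, Tgfbr3 at 33.4% and Acvr2b at 21.3%, while Acvr1b lay beyond the XX mean at 144%. The place of Fst is set against an XY control level not shown to be above background, and so depends on that floor. The scales differ, as the control means were only 0.34 apart for Acvr2a, 0.30 for Acvr2b and -0.41 for Acvr1b. For Inha they were -3.93 apart and for Fst 5.71. The Acvr2a and Acvr2b calls between controls were lost without single arrays. Acvr1b lay beyond the XX mean by a difference that did not pass (-0.18, adjusted p = 0.226). The array order was alike for several genes. For Fst, replicates 1 to 4 lay at 59.3%, 80.4%, 28.5% and 27.5%, for Inha at 95.1%, 93.7%, 55.7% and 60.8%, and for Inhba at 76.9%, 101.8%, 25.4% and -1.002%. Inhbb lay at 60.4%, 128%, -4.20% and -19.4%, and Tgfbr3 at 30.8%, 73.1%, 20.4% and 9.15%. In all 5 of these genes replicates 1 and 2 stood nearer the ovary than replicates 3 and 4, which did not hold for Acvr2a, Acvr2b or Acvr1b. This is a description of 4 arrays and was not tested.

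**Figure D3:**
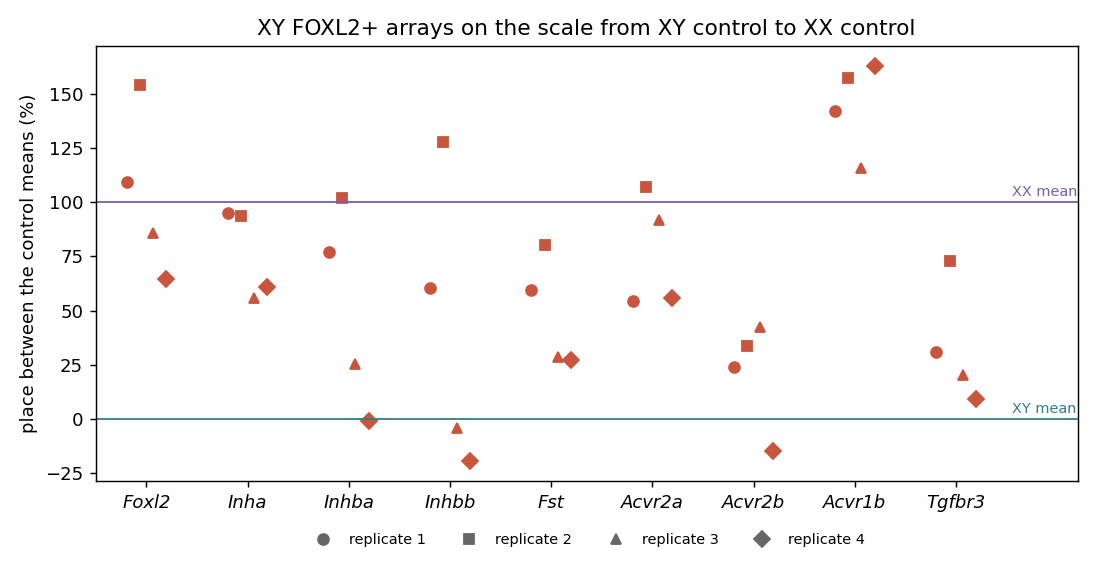
Place of each XY FOXL2+ array (vertical axis, percent of the way from the XY control mean to the XX control mean) for Foxl2 and the 8 genes that differed between the controls, with the replicate given by the marker shape. Replicates 1 and 2 lie above replicates 3 and 4 in Foxl2, Inha, Inhba, Inhbb, Fst and Tgfbr3, and all 4 arrays lie above the XX control mean in Acvr1b.

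Markers of the cell types that make these proteins spread over the same arrays. Foxl2 signal ran in the order replicate 2, 1, 3, 4, the order also seen in Fst, Inhba, Inhbb and Tgfbr3 from the ovary end. The mean of the 10 Sertoli cell markers was 8.47, 7.66, 9.36 and 9.22 on XY FOXL2+ replicates 1 to 4, with 8 of 10 lower than in XY controls and none higher. The mean of the 8 fetal granulosa cell markers was 9.06, 9.70, 8.16 and 8.10, with 4 of 8 higher and none lower. Foxl2, the gene switched on by design, is 1 of the 8 and 1 of the 4. Its rise is thus no separate sign of granulosa cells. The 5 fetal Leydig cell markers measured averaged 9.27, 8.65, 11.2 and 11.3, against 8.70 to 8.89 in XX controls and 15.3 to 15.6 in XY controls, and all 5 fell relative to XY controls. Nr5a1, the SF1 gene, is 1 of the 5 and did not spread so, at 11.60 to 11.79 in XY FOXL2+. It averaged 12.15 in XX controls and 13.39 in XY controls. The part of these cell types in the differences of Inha, Inhba, Inhbb, Fst and Tgfbr3 was not tested. Of 6 endothelial markers 2 were higher and none lower than in XY controls, and of 5 macrophage markers 4 were higher. Of 6 mesonephric markers 1 was higher and 1 lower, and none of 6 germ cell markers passed. All these marker counts stand beside 7.12% of all clusters called in this comparison (2.46% higher, 4.67% lower). That share was larger among clusters above the median mean signal. Under every alternative fit, 5 of the 8 Sertoli, 3 of the 4 granulosa, 5 of the 5 Leydig, 1 of the 2 endothelial, 2 of the 4 macrophage and 1 of the 2 mesonephric calls held.

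**Figure D4:**
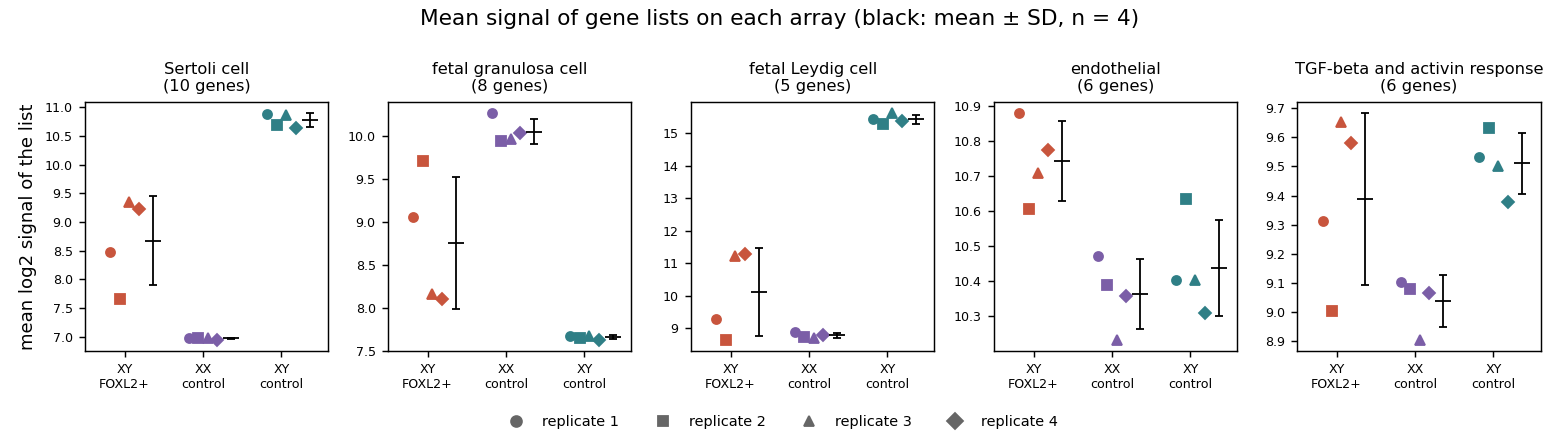
Mean log2 signal (vertical axis, own scale per list, not starting at 0) of 5 gene lists on each of 12 arrays, by group, with the mean and SD of 4 arrays in black and the replicate given by the marker shape. The Sertoli and Leydig means of the XY FOXL2+ arrays are higher on replicates 3 and 4. The granulosa mean, which includes Foxl2, is higher on replicates 1 and 2.

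Other genes of the pathway are counted by list, beside 7.12% of all clusters called in XY FOXL2+ and 17.4% in XX controls, both relative to XY controls. Both shares were larger among clusters above the median mean signal. Of 7 other ligands of activin receptors measured none passed in XY FOXL2+ relative to XY controls, and in XX controls relative to XY controls Gdf11 was higher (0.46, adjusted p = 0.0276) and Nodal lower (-0.53, 0.00763). Nodal averaged 5.90 in XY FOXL2+, 5.70 in XX controls and 6.23 in XY controls, where absent Y-linked genes read or below, so it is not shown to be above background in any group. Of 14 other receptors and co-receptors of the family, Acvrl1, a type I receptor best known from endothelium, fell in XY FOXL2+ to 7.89 ± 0.15, against 8.89 ± 0.12 in XY controls (-0.996, adjusted p = 3.28e-05), and Bmpr1b, a type I receptor for bone morphogenetic proteins, rose to 7.81 ± 0.22, against 6.94 ± 0.09 (0.87, 0.0012). In XX controls 5 of the 14 were higher and 5 lower than in XY controls, among them Acvrl1 (-0.94), Bmpr1b (1.34) and Amhr2, the receptor for anti-Müllerian hormone (1.86, adjusted p = 0.000175). Amhr2 did not pass in XY FOXL2+ relative to XY controls (0.81, adjusted p = 0.0723). Bmpr1b read 6.83 to 7.02 in XY controls, at the top of the range of absent Y-linked genes. Its differences from XY controls are thus set against a level not clearly above background. The call of Gdf11 ended when single control arrays were left out (adjusted p up to 0.0833). Of 9 other secreted antagonists Lefty2, an inhibitor of Nodal, fell (-1.16, adjusted p = 0.00486) and 8 did not pass, and in XX controls 3 were lower, Lefty2 (-1.73), Lefty1 (-0.68) and Fstl1 (-0.50). Lefty2 averaged 5.99 in XY FOXL2+, 5.42 in XX controls and 7.15 in XY controls, so its differences are set against levels not shown to be above background. Lefty1 averaged 5.65 in XY FOXL2+, 5.09 in XX controls and 5.76 in XY controls, below all the absent Y-linked genes. Lefty1 lost that call without single control arrays (adjusted p up to 0.081).

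Of 4 proprotein convertases, enzymes that cut precursors of this family, none passed in XY FOXL2+, while XX controls had less Pcsk5 (-2.03, adjusted p = 0.000539) and more Pcsk6 (1.14, 0.00199) and Pcsk7 (0.29, 0.0354) than XY controls. Pcsk7 did not keep its call without single control arrays (adjusted p up to 0.104). Among 12 SMAD transducers and regulators, 4 passed in XY FOXL2+ and 8 in XX controls, both relative to XY controls. Smad2 (-0.18, adjusted p = 0.183) and Smad4 (-0.19, 0.308) did not pass in XY FOXL2+ relative to XY controls, nor in the other two comparisons. Of the 3 comparisons Smad3 passed in XX controls relative to XY controls alone, where it was higher (0.84, adjusted p = 0.0251, up to 0.0632 without single control arrays). All 3 groups enter that test. The SD of Smad3 was 0.65 in XY FOXL2+, 0.06 in XX controls and 0.12 in XY controls. In XY FOXL2+ relative to XY controls Tgif1, a corepressor of SMAD2 and SMAD3, fell (-0.64, 0.0119), Smad7, the feedback inhibitor, fell (-0.47, 0.0396), Smurf1, a ubiquitin ligase for SMADs, fell (-0.38, 0.0283), and Zfyve9, which brings SMADs to the receptor, rose (0.56, 0.018). Only the call of Tgif1 among these 4 held in every alternative fit, and without single arrays the adjusted p reached 0.105 for Smad7, 0.0796 for Smurf1 and 0.0591 for Zfyve9.

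Of 6 measured response genes of activin and TGF-beta, Smad7 and Tgif1, both already counted, fell in XY FOXL2+ relative to XY controls and the other 4 did not pass. In XX controls relative to XY controls 4 were lower, Smad7 (-0.78), Tgif1 (-0.92), Skil (-0.83, adjusted p = 0.000668) and Pmepa1 (-0.95, 0.0103), and Ltbp1, which encodes a binding protein of latent TGF-beta, was higher (1.28, 0.0001). XY FOXL2+ exceeded XX controls in Pmepa1, a SMAD-induced feedback gene (1.19, adjusted p = 0.00883), in Ccn2 (0.98, 0.0214), which averaged 6.47 in XX controls, within the range of absent genes, and in Skil (0.49, 0.0495), and was lower in Ltbp1 (-1.16, 0.0012). Ccn2 and Skil lost these calls without single arrays (adjusted p up to 0.0639 and 0.143). The mean of the 6 genes was 9.31, 9.003, 9.65 and 9.58 on XY FOXL2+ replicates 1 to 4, 8.91 to 9.10 in XX controls and 9.38 to 9.63 in XY controls.

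Profiles over the 12 arrays were compared with those of all 30702 named genes by the root mean square difference, in log2 units, after each gene was centred on its own mean. Closest to Inha were Ptgds (0.21), a prostaglandin D synthase of Sertoli cells, Jag1 (0.28), a Notch ligand, Gramd1b (0.28), Casq2 (0.31) and Sostdc1 (0.34). Closest to Inhba were Tmem184a (0.22), Erbb4 (0.25), Arhgap20 (0.27), Jam2 (0.27) and Fshr (0.27), the receptor for follicle-stimulating hormone. Inhbb was followed most closely by Mical2 (0.09), then by Myo10 (0.17), St3gal4 (0.18), Lrfn5 (0.18) and Plcxd3 (0.19). Fst had a single near neighbour, Tnfrsf19 (0.29), a WNT-responsive receptor gene, which averaged 10.14 in XY FOXL2+, 12.71 in XX controls and 7.09 in XY controls. The next closest to Fst were 1700013H16Rik (0.77), Lrrn1 (0.77), Phlda2 (0.80) and Rec8 (0.81), a meiotic cohesin. These distances describe the arrays, on which genes share group differences and RNA samples, and carry no test.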

How the data were processed

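RNA was measured on Affymetrix Mouse Transcriptome 1.0 arrays in 12 gonad samples, per the labels. The deposited values run from 2.54 to 19.49 and were taken as log2 signal. For the log base, background correction, summarization and normalization the authors used, the sources used here give no method, and another base would rescale every log2 difference. Control probe sets (6732) were left out and 65956 clusters were fitted with limma 3.58.1 in R 4.3.3 (lmFit, eBayes with an intensity trend, 9 residual degrees of freedom), two-sided, with Benjamini-Hochberg adjustment over all clusters. The 3 groups shared an estimate of the spread, so a gene has the same SE in every comparison. Where XY FOXL2+ arrays spread most, that SE can be too large between the controls and too small for XY FOXL2+. Other steps used Python 3.11.15. Platform symbols were updated through the RefSeq table, which left 31258 clusters with a single gene symbol, 1492 with several and 33206 not listed. All 10 genes were named whatever their result. From other lists, genes that passed in XY FOXL2+ or XX controls relative to XY controls could be named, not all of them, and others only as examples with values. The rule also names the 5 nearest profiles of Inha, Inhba, Inhbb and Fst. Genes, lists and motifs were chosen with earlier results of these data known. No filter on low signal was used. The number of arrays limits precision. Same-numbered arrays of different groups had correlations of deviations of -0.09 to 0.18, so numbers were not taken as pairs. Some genes of the lists are not reported here. Alternatives were other normalizations, a signal filter, other variance models, array weights, fewer groups, a replicate block, leaving out each array and averaging clusters.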

Additional observations from a re-analysis of the deposited data

Results flagged for a closer look

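In 2 of 30 groups of 4 arrays, 1 array stood far from the other 3 by Dixon's 95% critical value, which chance passes in about 1 in 20 groups. Inhbb on XX control replicate 1 read 9.92, above 9.79 to 9.81 on the other XX controls. Acvr1c on XX control replicate 4 read 5.64, below 5.70 to 5.71 on the other XX controls. Both gaps are small beside the differences between groups for Inhbb, and Acvr1c lies at the level of absent genes. The spread of the XY FOXL2+ arrays in Inha, Inhba, Inhbb and Fst came from several arrays each and was not picked out by this check.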

How the results depend on the processing

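Of 627 alternative values for the 10 genes, 608 kept their direction and their side of the threshold, 10 newly passed, 9 no longer passed and 0 changed direction. Many of these alternatives could change only the SE or adjusted p, not the difference. Among them are other variance models, fewer groups, the replicate block, the signal filter and leaving out an array of the group not compared. The unchanged directions thus rest on fewer than 627 values. Inha, Fst and Acvr1b passed in XY FOXL2+ minus XY control under every alternative run, as did Inha, Inhba, Inhbb, Fst, Acvr1b and Tgfbr3 in XX control minus XY control, and Fst and Tgfbr3 in XY FOXL2+ minus XX control. With single arrays left out, 3 to 5 genes passed in XY FOXL2+ minus XY control (5 without XY FOXL2+ replicate 4), 6 to 8 in XX control minus XY control, and 2 to 5 in XY FOXL2+ minus XX control (5 without XY FOXL2+ replicate 2). With array weights 5 passed in the last comparison. With the replicate block 3, 8 and 2 genes passed, and the block changed no call of the 10 genes. Same-numbered arrays share only a number. Over all clusters, called numbers moved by more than 1.5 times with only the 2 groups compared (2700 against 4698 in XY FOXL2+ minus XY control, 1916 against 3635 in XY FOXL2+ minus XX control), without XY control replicate 3 (3124 in XY FOXL2+ minus XY control), and with array weights (6752 in XY FOXL2+ minus XX control). In that last comparison they ranged from 2012 to 5992 with single arrays left out, past 1.5 times without XY FOXL2+ replicates 2, 3 or 4 and XX control replicates 2, 3 or 4. The causes were not tested. Acvr1c had no value under the filter on signal. The lack of detection calls limits the genes with a group at or below the level of absent Y-linked genes. Among them are Fstl3, Acvr1c, Nodal, Lefty1, Lefty2, Ccn2 in XX controls, and Fst, Foxl2 and Bmpr1b in XY controls.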
